A study of Mus musculus with 9 samples.

Results

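Macrophages are present in the heart and can be carried into fibroblast cultures that are made by enzymatic digestion and attachment to plastic. The 38 genes described here are used as markers or effectors of macrophages and other leukocytes, and they were followed in cultures labelled as mouse cardiac fibroblasts. They were found by symbol in a deposited table of 56953 genes. All 38 had 1 line each, and 32 reached a level that could be tested, among 14215 tested genes in all. Levels are given as TPM, a transcript abundance that is scaled for gene length and has the same total in every library, so that levels of different genes can be set side by side.

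The study held 9 polyA RNA libraries, 3 from cultures infected with the Ad-JP2 adenovirus, 3 with Ad-shJP2 and 3 with Ad-GFP, the control. JP2 is junctophilin-2, which holds the endoplasmic reticulum close to the plasma membrane and is encoded by Jph2. Per the labels, all cultures were of wildtype genotype and came from hearts of adult male C57BL/6N mice, from which cardiomyocytes had been settled out by gravity. All were infected with virus, without an uninfected group, and were harvested after 72 h; the labels do not give the age of the mice or the promoter of each virus, nor whether the replicates were separate isolations or dishes. The p-values therefore measure the spread between these libraries, which may be technical.

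Jph2 was at 737, 691 and 637 TPM in Ad-JP2 libraries, at 116.5, 123 and 119 TPM in Ad-shJP2 and at 132, 127.5 and 128 TPM in Ad-GFP. The libraries labelled Ad-shJP2 were thus little below Ad-GFP in the targeted message, and the difference did not pass (limma adjusted p = 0.0724; log2 fold change -0.11, SE 0.05). The estimated depth ran from 37000000 to 41500000 reads in Ad-JP2, from 21300000 to 33300000 reads in Ad-shJP2 and from 40500000 to 45600000 reads in Ad-GFP. The lower depth of Ad-shJP2 bears on the scarcest genes below. The label of the cultures was checked with 11 fibroblast markers, all of which were expressed. Their summed level ran from 11217 to 11982 TPM in Ad-JP2, from 7531 to 7764 TPM in Ad-shJP2 and from 11411 to 11517 TPM in Ad-GFP. Genes of the macrophage list stood beside them at high levels.

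Macrophages of the heart include long-lived resident cells, which are marked by Timd4, Lyve1 and Folr2 and take up debris through receptors such as Mrc1 and Cd163. Others derive from blood monocytes that enter through the chemokine receptor Ccr2. Both depend on the receptor Csf1r and its ligands, and on the transcription factor PU.1 (encoded by Spi1). Macrophages that take up much lipid express Trem2, Gpnmb and Apoe, and class II molecules such as H2-Ab1 with Cd74 present antigen to T cells.

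Promoter windows are shown for the genes that the results turn on, Mrc1, Cybb, Cx3cr1 and Fcgr1 among the members that changed most and 2 of the C1q genes, which moved together. Ptprc, which also changed much, had 2 windows without a match to the motifs below, and they are not printed. Windows were taken from RefSeq (build GRCm38.p6) and run from 250 bases before to 50 bases after each start, written 5′ to 3′ on the gene's strand. Of the 38 members 26 had a window, and some had several, 32 windows in all. Capitals mark matches to 1 of 4 motifs searched on both strands. These were GAGGAAG, a core read by PU.1; the core of the interferon-stimulated response element, which is a pair of GAAA repeats set 2 bases apart; TTCNNNGAA, of the gamma-activated site; and TCATGTG, an E-box read by MITF. No match overlapped another.
Mrc1: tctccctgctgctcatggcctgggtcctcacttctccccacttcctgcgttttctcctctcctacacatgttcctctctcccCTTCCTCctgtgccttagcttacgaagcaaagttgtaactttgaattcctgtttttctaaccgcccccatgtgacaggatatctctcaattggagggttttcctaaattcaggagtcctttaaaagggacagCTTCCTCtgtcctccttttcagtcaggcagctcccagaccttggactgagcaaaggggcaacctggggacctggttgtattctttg
Cybb: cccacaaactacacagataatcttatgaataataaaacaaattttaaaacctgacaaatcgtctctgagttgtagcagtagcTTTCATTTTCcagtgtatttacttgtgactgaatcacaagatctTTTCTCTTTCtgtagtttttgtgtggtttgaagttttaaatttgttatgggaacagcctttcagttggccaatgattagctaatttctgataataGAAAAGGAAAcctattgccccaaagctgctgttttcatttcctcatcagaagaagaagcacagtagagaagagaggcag
Cx3cr1: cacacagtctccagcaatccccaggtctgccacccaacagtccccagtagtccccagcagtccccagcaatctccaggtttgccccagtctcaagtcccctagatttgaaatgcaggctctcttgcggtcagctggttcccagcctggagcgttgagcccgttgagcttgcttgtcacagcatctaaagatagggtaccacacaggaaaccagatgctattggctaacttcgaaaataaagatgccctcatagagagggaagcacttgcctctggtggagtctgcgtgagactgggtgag
Fcgr1: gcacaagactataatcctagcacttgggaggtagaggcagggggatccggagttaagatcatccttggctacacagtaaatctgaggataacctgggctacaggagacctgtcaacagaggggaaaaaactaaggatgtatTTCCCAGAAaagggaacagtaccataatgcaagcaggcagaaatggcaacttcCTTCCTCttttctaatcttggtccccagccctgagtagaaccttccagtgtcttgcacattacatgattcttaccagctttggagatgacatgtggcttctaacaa
C1qb: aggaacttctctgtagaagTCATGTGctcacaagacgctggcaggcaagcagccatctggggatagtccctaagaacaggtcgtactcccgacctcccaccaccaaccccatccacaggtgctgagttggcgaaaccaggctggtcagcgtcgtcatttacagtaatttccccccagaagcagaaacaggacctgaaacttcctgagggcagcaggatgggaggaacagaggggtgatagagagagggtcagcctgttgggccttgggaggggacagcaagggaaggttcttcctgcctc
C1qc: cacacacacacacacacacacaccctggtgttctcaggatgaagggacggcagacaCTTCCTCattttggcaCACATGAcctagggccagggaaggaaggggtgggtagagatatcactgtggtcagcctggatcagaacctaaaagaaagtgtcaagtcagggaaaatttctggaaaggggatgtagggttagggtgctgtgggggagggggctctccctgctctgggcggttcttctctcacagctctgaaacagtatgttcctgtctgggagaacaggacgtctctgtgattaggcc

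The Mrc1 window (chr2:14229164-14229463, plus strand) held the PU.1 core at 168 and 36 bases before the start, both on the minus strand of the gene. The Cybb window (chrX:9469275-9469574, minus strand) held 3 matches to the interferon element, at 168, 124 and 29 bases before the start. Only 2 of the 32 member windows had that element (6.25%), those of Cybb and Aif1, and 3.44% of 32851 windows of all genes did. The Fcgr1 window (chr3:96293920-96294219, minus strand) had the gamma-activated element at 109 bases and the PU.1 core at 56 bases before the start. Fcgr1 was the 1 member with the gamma-activated element (1 of 32 windows), which 8.30% of all windows held. The Cx3cr1 window (chr9:120068247-120068546, minus strand) held none of the 4 motifs.

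C1qb and C1qc lie near each other on chromosome 4 (windows chr4:136886151-136886450 and chr4:136892865-136893164, both minus strand). Each held the MITF E-box, at 231 bases before the start in C1qb and at 178 bases in C1qc. Ms4a7 was the third member with it (3 of 32 windows, 9.38%), and 3.77% of all windows held it. C1qc also had the PU.1 core at 194 bases before the start. That core was found in 9 of the 32 member windows (28.1%), against 13.6% of all windows. They belonged to 8 members (C1qc, Fcgr1, Fcgr3, Laptm5, Marco, Mrc1, Pf4 and Trem2). These are matches of letters in short windows, given as a description.

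Among lineage and signalling genes, Tyrobp and Fcer1g, adaptors that pass signals from activating receptors, were the most abundant. Tyrobp stood at 199, 208 and 199.5 TPM in Ad-JP2, at 265, 256 and 261 TPM in Ad-shJP2, and at 219.8, 228 and 226 TPM in Ad-GFP. Fcer1g averaged 198 ± 1.43 TPM in Ad-JP2, 218 ± 6.45 TPM in Ad-shJP2 and 199 ± 7.77 TPM in Ad-GFP (SD, n = 3 each). Laptm5, a lysosomal membrane protein of blood cells, averaged 145 ± 6.70, 163 ± 2.55 and 151 ± 2.42 TPM in Ad-JP2, Ad-shJP2 and Ad-GFP. Tyrobp thus formed 3 groups that did not overlap, whereas Fcer1g was separated in Ad-shJP2 alone.

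Csf1r, the receptor for CSF1 and IL-34 on which macrophages depend, was at 42.1, 52.1 and 40.8 TPM in Ad-JP2, at 45.3, 49.7 and 43.9 TPM in Ad-shJP2 and at 52.2, 49.4 and 50.7 TPM in Ad-GFP. The Csf1r values of the 3 groups overlapped. Adgre1, the F4/80 antigen, averaged 29.3 ± 1.19 TPM in Ad-JP2, 33.5 ± 0.589 TPM in Ad-shJP2 and 28.6 ± 1.76 TPM in Ad-GFP. Spi1 lay between 27.0 and 32.7 TPM in the 9 libraries, and Aif1, an actin-binding protein of macrophages, between 20.6 and 26.3 TPM. Lst1, a small leukocyte membrane protein, lay between 12.3 and 18.2 TPM. Spi1 and Aif1 did not pass in any comparison.

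Ptprc, the CD45 phosphatase that is carried by all nucleated blood cells, was the exception in this group. It stood at 1.80, 2.20 and 2.20 TPM in Ad-JP2, at 0.309, 0.177 and 0.233 TPM in Ad-shJP2 and at 0.571, 0.669 and 0.537 TPM in Ad-GFP. In every group it was scarcer than the other genes for lineage and signalling. In Ad-GFP its mean ranked 14772 among all genes, against 742 for Tyrobp and 2921 for Csf1r. Ptprc passed the filter (at least 1 TPM in 3 libraries) only through Ad-JP2, so it had to be higher there, and its values in Ad-JP2 are a description with no test.

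Lyz2, which encodes the lysozyme of myeloid cells, was the most abundant member. Its level was 1542, 1563 and 1565 TPM in Ad-JP2, 2027, 1994 and 2048 TPM in Ad-shJP2, and 1715, 1744 and 1731 TPM in Ad-GFP. The groups did not overlap, and Lyz2 ranked 98 in Ad-JP2, 72 in Ad-shJP2 and 85 in Ad-GFP among all genes. Lyz2 has a close paralog in Lyz1, as the Fc gamma receptors have among themselves, and how reads were split between such copies is not given in the sources used here.

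Cd68, a glycoprotein of lysosomes, averaged 142 ± 4.81 TPM in Ad-JP2, 180.3 ± 1.66 TPM in Ad-shJP2 and 148 ± 3.08 TPM in Ad-GFP. Cd14, the co-receptor for lipopolysaccharide, ran from 11.2 to 12.8 TPM in Ad-JP2, from 15.1 to 16.7 TPM in Ad-shJP2 and from 11.3 to 14.9 TPM in Ad-GFP. The scavenger receptor Msr1 ran from 15.3 to 22.1 TPM in Ad-JP2, from 11.4 to 17.8 TPM in Ad-shJP2 and from 14.5 to 17.1 TPM in Ad-GFP, and so overlapped throughout. Marco, another scavenger receptor, stayed below 1 TPM in all 9 libraries.

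Cybb, the catalytic subunit of the phagocyte NADPH oxidase, was at 16.2, 12.2 and 12.6 TPM in Ad-JP2, at 4.51, 2.87 and 3.25 TPM in Ad-shJP2 and at 6.85, 6.81 and 7.23 TPM in Ad-GFP. Each Cybb value of Ad-JP2 was above all those of Ad-GFP, and each value of Ad-shJP2 was below them.

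The 3 chains of C1q, the recognition molecule of the classical complement pathway, were also abundant, though well below Lyz2. C1qa was at 421, 425 and 419.6 TPM in Ad-JP2, at 518, 528 and 529 TPM in Ad-shJP2 and at 449.9, 449.7 and 449.6 TPM in Ad-GFP. C1qb averaged 293 ± 1.82, 372 ± 3.32 and 307 ± 8.84 TPM, and C1qc 374 ± 2.17, 459 ± 2.53 and 403 ± 6.47 TPM, in Ad-JP2, Ad-shJP2 and Ad-GFP. No chain overlapped between groups. The chains kept nearly the same proportions in each library, with C1qa at 38.4% to 39.2% of their sum, C1qb at 26.1% to 27.8% and C1qc at 33.8% to 35.2%.

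Among the receptors for IgG, Fcgr3 and Fcgr2b (a low-affinity activating and the inhibitory receptor) averaged 87.9 ± 4.07 and 43.2 ± 0.961 TPM in Ad-JP2, 105 ± 4.24 and 40.7 ± 2.74 TPM in Ad-shJP2, and 94.4 ± 2.45 and 43.0 ± 0.839 TPM in Ad-GFP. Fcgr1, the high-affinity receptor CD64, was scarcer and changed more. It stood at 6.68, 6.63 and 7.14 TPM in Ad-JP2, at 13.2, 15.6 and 14.2 TPM in Ad-shJP2 and at 7.22, 7.01 and 4.59 TPM in Ad-GFP. All 3 Ad-shJP2 values were above every other value, and Ad-JP2 overlapped Ad-GFP.

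Of the genes used to mark resident macrophages, Pf4, Ms4a7 and Folr2 were well above 1 TPM while Timd4, Lyve1 and Cd163 were below it. Pf4, a chemokine that resident macrophages share with platelets, averaged 75.1 ± 1.54 TPM in Ad-JP2, 96.9 ± 3.26 TPM in Ad-shJP2 and 83.5 ± 2.59 TPM in Ad-GFP. Ms4a7, a membrane protein of macrophages, averaged 63.5 ± 3.86, 68.3 ± 3.73 and 63.2 ± 3.20 TPM, and the folate receptor Folr2 26.6 ± 2.06, 35.9 ± 2.66 and 28.4 ± 0.409 TPM, in Ad-JP2, Ad-shJP2 and Ad-GFP. Folr2 of Ad-shJP2 stood apart from Ad-GFP, and Ms4a7 overlapped.

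Mrc1, the mannose receptor CD206, differed widely between the groups. It was at 19.8, 21.1 and 20.0 TPM in Ad-JP2, at 1.86, 2.02 and 2.03 TPM in Ad-shJP2 and at 8.14, 8.04 and 8.30 TPM in Ad-GFP. The 3 libraries of each group lay close together and far from the other groups. Timd4, a receptor for phosphatidylserine on dying cells, was at 0.291 TPM or less. Lyve1, a hyaluronan receptor, was at 0.279 TPM or less and Cd163, the haemoglobin scavenger receptor, at 0.499 TPM or less in every library.

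Ccr2, the receptor of recruited monocytes, was at 0 in 6 of 9 libraries and at 0.025, 0.043 and 0.023 TPM in the others. A count of 0 allowed a Ccr2 level of up to 0.0269 to 0.0504 TPM in those libraries (3 reads at the estimated depth; counting error only). Cx3cr1, the fractalkine receptor, which monocytes and many resident macrophages carry, was at 11.2, 11.6 and 10.3 TPM in Ad-JP2, at 3.25, 3.40 and 3.92 TPM in Ad-shJP2 and at 9.37, 10.5 and 9.48 TPM in Ad-GFP. Cx3cr1 of Ad-shJP2 lay below all other values. Ms4a6c, a membrane protein of monocytes and macrophages, averaged 13.3 ± 1.36, 9.97 ± 0.706 and 12.7 ± 1.59 TPM in Ad-JP2, Ad-shJP2 and Ad-GFP.

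The lipid-associated genes were among the abundant ones. Apoe, a lipid carrier that other cells also secrete, averaged 358 ± 2.46 TPM in Ad-JP2, 409.9 ± 6.76 TPM in Ad-shJP2 and 417 ± 10.7 TPM in Ad-GFP. Gpnmb, a lysosomal glycoprotein, averaged 92.1 ± 2.10, 117 ± 3.95 and 97.0 ± 0.340 TPM, and Trem2, a lipid-sensing receptor that signals through Tyrobp, 58.5 ± 1.44, 72.7 ± 1.17 and 60.0 ± 1.87 TPM, in Ad-JP2, Ad-shJP2 and Ad-GFP. Gpnmb and Trem2 were highest in Ad-shJP2, without overlap.

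Class II genes were close to the limit of the test. H2-Ab1 averaged 2.67 ± 0.557 TPM in Ad-JP2, 3.86 ± 0.548 TPM in Ad-shJP2 and 3.26 ± 0.481 TPM in Ad-GFP, and the invariant chain Cd74 2.54 ± 0.399, 2.39 ± 0.347 and 2.38 ± 0.219 TPM. H2-Aa, whose product pairs with that of H2-Ab1, was below 1 TPM in all libraries. Cd86, a costimulatory ligand for T cells, ran from 1.79 to 4.62 TPM over the 9 libraries. The groups overlapped for all 4 when set against Ad-GFP.

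**Figure D1:**
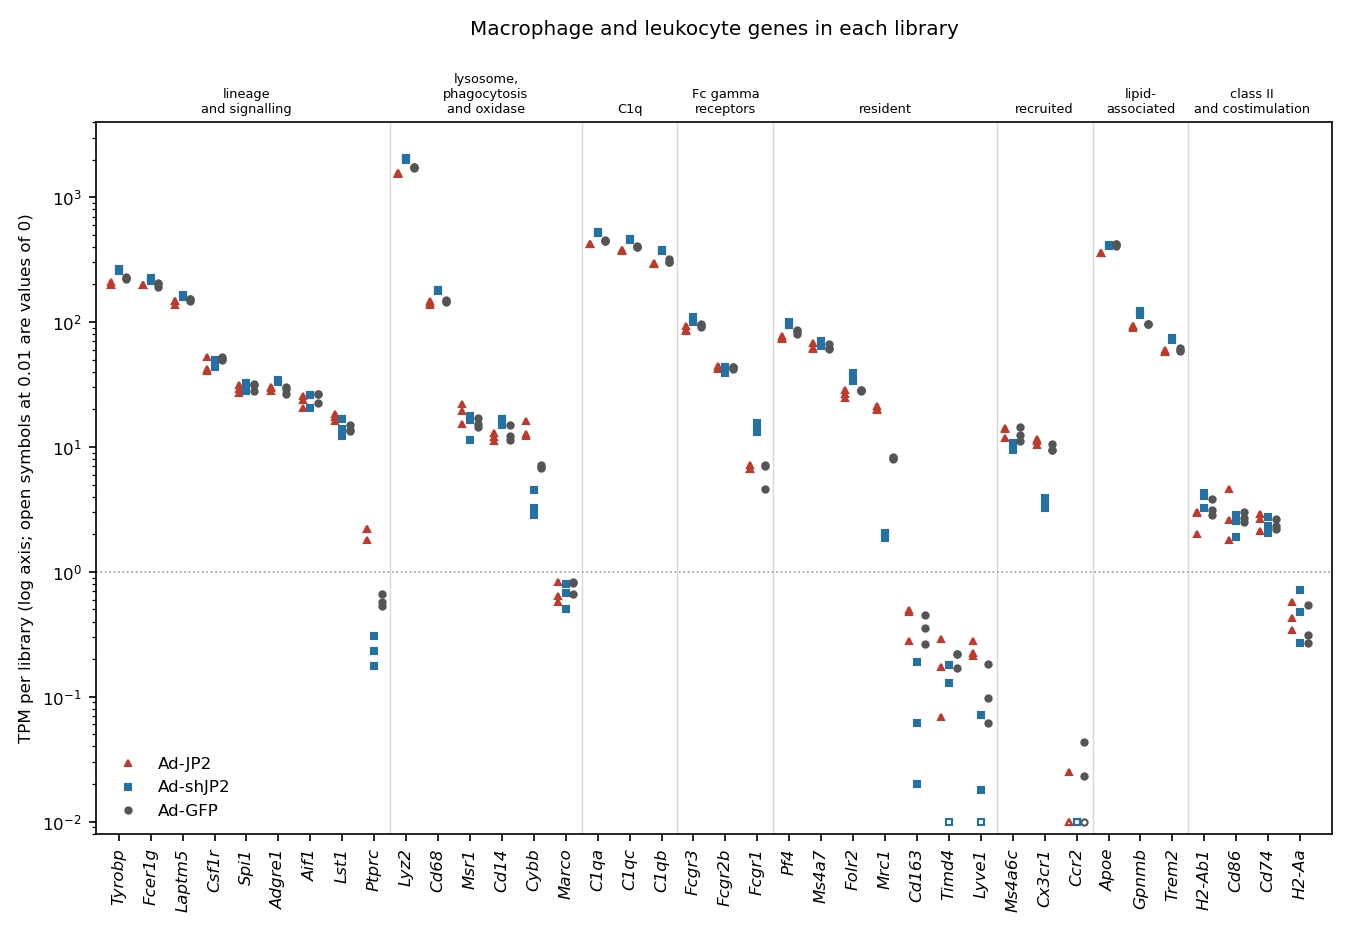
TPM of each member in each of the 9 libraries on a log axis, ordered by role, with Ad-JP2 as triangles, Ad-shJP2 as squares and Ad-GFP as circles; open symbols at 0.01 stand for 0 and the dotted line marks 1 TPM. Most members lie within a narrow band in all 9 libraries, while Mrc1, Cybb, Cx3cr1 and Ptprc are spread out and Ccr2, Timd4 and Lyve1 lie near the floor.

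Ordered by their mean in Ad-GFP, the members ran from Lyz2 at 1730.2 ± 14.5 TPM to Ccr2 at 0.0220 ± 0.0215 TPM. Of the 37 neighbouring pairs in that order, 22 did not overlap in the 3 Ad-GFP libraries and 15 did. Apoe and C1qc, Laptm5 and Cd68, Ms4a7 and Trem2, and Cybb and Fcgr1 were among the neighbours that did not differ beyond their spread. The summed level of all 38 was 4390.0 ± 33.8 TPM in Ad-JP2, 5370.2 ± 50.7 TPM in Ad-shJP2 and 4731 ± 34.2 TPM in Ad-GFP.

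In Ad-JP2 Lyz2, C1qa, C1qc, Apoe, Tyrobp and Pf4 were slightly lower than in Ad-GFP, while Mrc1 and Cybb were higher. Other abundant members, among them Fcer1g, Laptm5, Cd68 and Gpnmb, did not pass. Of the 32 tested members 3 were called higher and 6 lower (limma, adjusted p under 0.05 over all tested genes), where 13.4% and 1.64% of all 14215 tested genes were. Ptprc is 1 of the 3 and was bound to be higher by the filter. Mrc1 was 2.49-fold higher (log2 fold change 1.22, SE 0.06, limma adjusted p = 4.2e-06). Cybb was 1.97-fold higher (0.87, SE 0.14, adjusted p = 0.00278). The mean of Ptprc was 3.49-fold that of Ad-GFP, given with no test. Log2 fold changes are differences of mean log2(TPM + 1) and so understate the change of a scarce gene such as Ptprc. In these bulk libraries fewer cells of a type and less RNA per cell cannot be told apart.

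The 6 lower members fell by small amounts. Apoe was 14.0% lower (log2 fold change -0.22, limma adjusted p = 0.000354), Lyz2 10.0% lower (-0.15) and Tyrobp 9.96% lower (-0.15). Pf4 (-0.15, adjusted p = 0.0225), C1qc (-0.11) and C1qa (-0.09) were also called. The Pf4 call was lost when 1 of 4 libraries was left out (Ad-JP2 replicate 1 or 2, or Ad-GFP replicate 1 or 2; adjusted p between 0.0714 and 0.0890). The third chain, C1qb, differed by -0.07 and did not pass (adjusted p = 0.105). The median over the 32 members was -0.06, and over all tested genes it was 0.01. Quantile scaling gave 3 members higher and 5 lower, where 1460 of all tested genes were higher and 750 lower, against 1902 and 233 with the deposited scaling.

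Of all tested genes 13.4% were higher in Ad-JP2 and 1.64% lower. By role, lineage and signalling genes had 1 of 9 higher (Ptprc, by way of the filter) and 1 lower. The lysosome, phagocytosis and oxidase group had 1 of 5 higher and 1 lower, and the C1q chains 2 of 3 lower. The resident group had 1 of 4 higher (Mrc1) and 1 lower (Pf4), and the lipid-associated group 1 of 3 lower (Apoe). After correction for GC content and length, given below, the C1q chains had 0 lower and the lipid-associated group 2. Lineage and signalling genes then had 2 higher (Ptprc again among them) and 0 lower. The lysosome, phagocytosis and oxidase group had 0 higher and 1 lower, and the resident group 1 higher and 0 lower. No member of the Fc gamma receptors, the recruited group or the class II group passed. Among those, Cx3cr1 differed by 0.16 (SE 0.08), Fcgr1 by 0.12 (SE 0.14) and Cd86 by 0.03 (SE 0.23), and a p that misses the threshold does not show that they were alike.

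In Ad-shJP2 most of the abundant macrophage genes were modestly higher than in Ad-GFP, whereas Mrc1, Cx3cr1, Cybb, Ptprc and Ms4a6c were lower. Of the 32 members 16 were called higher and 5 lower, against 21.8% and 37.7% of all tested genes. The median over the members was 0.12, and over all tested genes it was -0.11. With another scaling of the libraries the median of all genes was -0.02 (median-of-ratios) or 0.02 (quantile), so that differences from Ad-shJP2 depended in part on the scaling, by amounts that varied between members. Median-of-ratios scaling gave 18 members higher and 4 lower, where 4157 of all tested genes were higher and 4333 lower, and quantile scaling gave 17 members higher and 3 lower, where 4237 genes were higher and 3851 lower. Both comparisons used the same 3 Ad-GFP libraries and are given side by side.

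Set against Ad-GFP, Mrc1 was 4.14-fold lower in Ad-shJP2 (limma adjusted p = 4.7e-08; log2 fold change -1.62, SE 0.06). Cx3cr1 was 2.78-fold lower (-1.25, SE 0.08, adjusted p = 1.5e-06) and Cybb 1.97-fold lower (-0.83, SE 0.14, adjusted p = 0.000868). Ptprc was 2.47-fold lower (-0.36, SE 0.10, adjusted p = 0.0143), a call that was lost with quantile normalization (-0.13). It was tested only because Ad-JP2 passed the filter. All its values in Ad-shJP2 and Ad-GFP were below 1 TPM, with about 13 to 16 estimated reads per Ad-shJP2 library. Ms4a6c fell by 0.31 (adjusted p = 0.0263). Its call was lost without Ad-GFP replicate 2 or 3 or Ad-shJP2 replicate 1 or 2 (adjusted p between 0.0557 and 0.0933), and under median-of-ratios (-0.21) or quantile (-0.12) scaling. Of the recruited group the 2 tested members, Cx3cr1 and Ms4a6c, were called lower with the deposited scaling, where 37.7% of all tested genes were. Under median-of-ratios scaling, quantile scaling or correction for GC content and length, only 1 of them (Cx3cr1) was called lower.

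Fcgr1 had the largest rise of the 16 members called higher, 2.28-fold (log2 fold change 1.09, SE 0.14, limma adjusted p = 0.000134). The other 15 rose by 1.26-fold or less. Folr2 rose by 0.32, Cd68 by 0.29, C1qb, Trem2 and Gpnmb by 0.27 each, Lyz2 by 0.23 and C1qa by 0.22. Adgre1 (0.22), Tyrobp (0.21), Pf4 (0.21), C1qc (0.19) and Fcer1g (0.13) were also called in this comparison. Cd14 (0.31, adjusted p = 0.0213), Fcgr3 (0.15, adjusted p = 0.0141) and Laptm5 (0.10, adjusted p = 0.0313) each lost their call when single libraries were left out, Cd14 without Ad-GFP replicate 2 or 3 or Ad-shJP2 replicate 2 or 3. Fcgr3 lost it without Ad-GFP replicate 3 or Ad-shJP2 replicate 3, and Laptm5 without any 1 Ad-GFP library or Ad-shJP2 replicate 2 or 3.

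**Figure D2:**
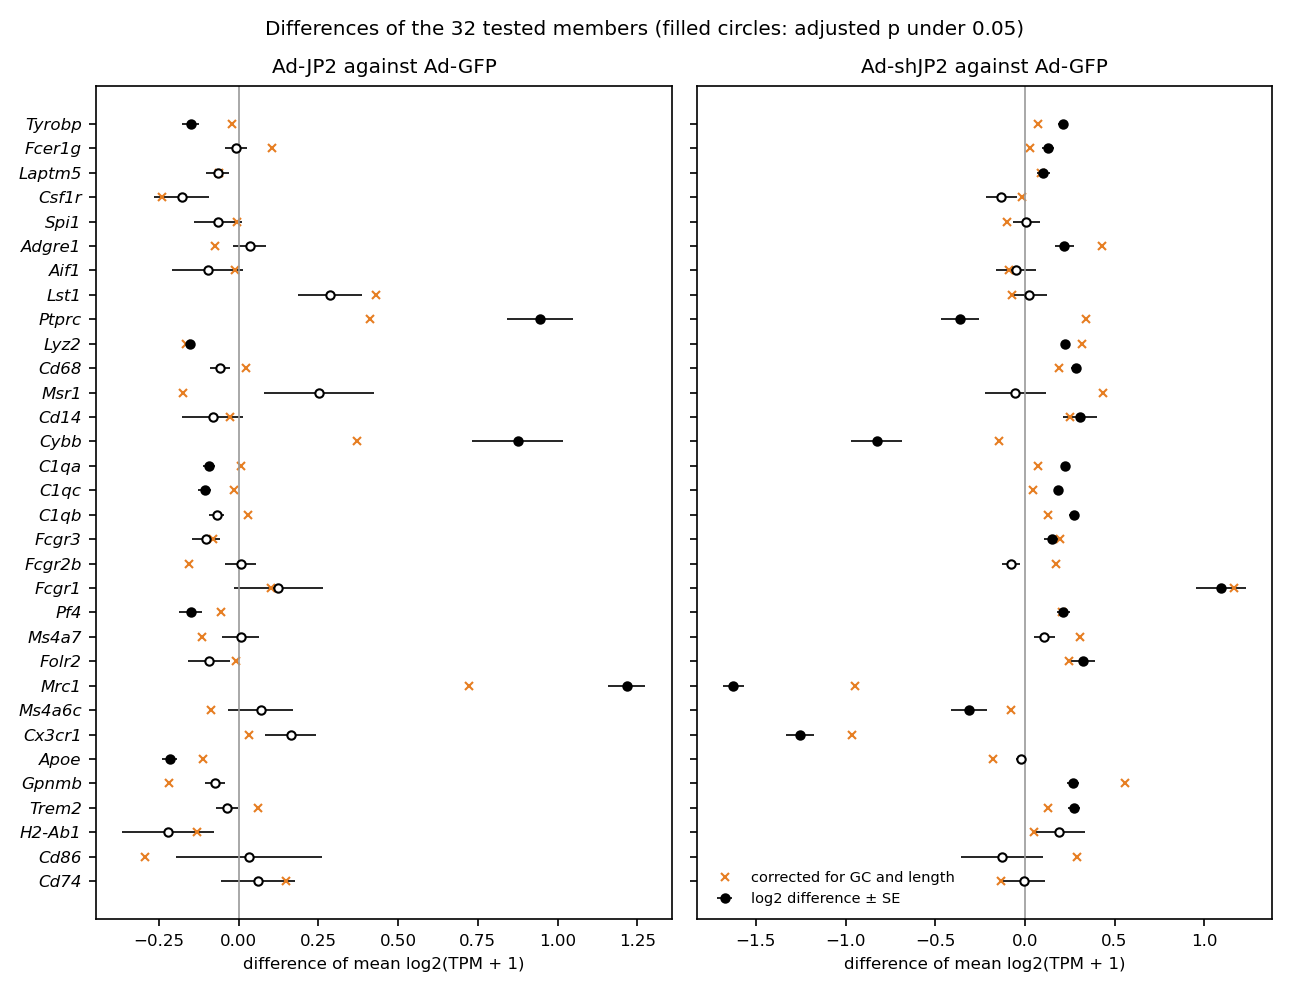
Difference of mean log2(TPM + 1) from Ad-GFP for the 32 tested members, Ad-JP2 on the left and Ad-shJP2 on the right, with SE bars; filled circles passed at an adjusted p under 0.05 and crosses are the values after correction for GC content and length. Mrc1, Cybb and Ptprc lie to the right of 0 in Ad-JP2 and to the left in Ad-shJP2, and Fcgr1 stands alone on the right in Ad-shJP2.

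Of all tested genes 21.8% were higher in Ad-shJP2 and 37.7% lower. By role, the C1q chains had 3 of 3 higher, the lipid-associated group 2 of 3, the Fc gamma receptors 2 of 3, and the lysosome, phagocytosis and oxidase group 3 of 5 higher and 1 lower. The resident group had 2 of 4 higher (Folr2 and Pf4) and 1 lower (Mrc1), and the lineage and signalling genes 4 of 9 higher and 1 lower. The class II group had none called. Apoe differed by -0.02 with the deposited scaling and by 0.09 with median-of-ratios scaling, where it was called higher (adjusted p = 0.0181). Csf1r differed by -0.13 (SE 0.09, adjusted p = 0.222), so its level did not pass while Adgre1 and Tyrobp rose.

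In the same Ad-shJP2 libraries 10 of 11 fibroblast markers were called lower and 1 (Thy1) higher, with a median of -0.83. Over all tested genes 37.7% were lower and 21.8% higher. Tcf21, a transcription factor of cardiac fibroblasts, was at 43.3, 45.8 and 38.4 TPM in Ad-shJP2, against 114, 116 and 109 TPM in Ad-GFP. Because TPM sums to the same total in every library, a lower share of one kind of RNA raises the share of others, and the part of this in the rise of the macrophage genes was not tested. In Ad-JP2 4 of the 11 markers were higher and 0 lower (limma), beside 13.4% and 1.64% of all tested genes. The 4 were Ddr2, Dcn, Pdgfra and Col1a1, and the median of the 11 markers was 0.05. After correction for GC content and length 2 were higher and 4 lower there, with a median of -0.01, while in Ad-shJP2 it was still 1 higher and 10 lower.

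A list of 20 interferon-stimulated genes was 18 higher and 1 lower in Ad-shJP2 (limma, median 1.53), beside 21.8% and 37.7% of all tested genes. In Ad-JP2 the list was 13 higher and 0 lower (median 0.35), beside 13.4% and 1.64%. Its summed level ran from 353 to 356 TPM in Ad-JP2, from 1142 to 1169 TPM in Ad-shJP2 and from 257 to 259.6 TPM in Ad-GFP. Fcgr1, which interferon induces in macrophages, was the member that rose most in Ad-shJP2, and the part of interferon in that rise was not tested. Cybb, whose window held 3 matches to the interferon element, was lower in Ad-shJP2 and higher in Ad-JP2. Neither difference was called after correction for GC content and length (-0.15 and 0.37). A part of interferon in the level of Cybb was not tested.

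Between the 2 treated groups, 6 of the 32 members were called higher in Ad-JP2 than in Ad-shJP2 and 18 lower, against 40.3% and 24.1% of all tested genes. The median over the members was -0.18, and over all tested genes 0.10 (-0.01 under median-of-ratios scaling, -0.11 under quantile scaling). Under these scalings 4 and 4 members were higher and 20 and 21 lower, where 4735 and 4024 of all tested genes were higher and 4634 and 5571 lower. Mrc1 was 10.3-fold higher in Ad-JP2 (log2 fold change 2.84, SE 0.06, limma adjusted p = 1.1e-09). Cybb (1.70), Cx3cr1 (1.42), Ptprc (1.31), Ms4a6c (0.38) and Lst1 (0.26, adjusted p = 0.0436) were also higher, Ptprc again by way of the filter. After correction for GC content and length Cybb stood at 0.52 and was still called, while Ptprc stood at 0.07 (limma adjusted p = 0.537) and Ms4a6c at -0.01. The mean TPM of Ptprc in Ad-JP2 was 8.63-fold that of Ad-shJP2, a change that log2(TPM + 1) understates. Ms4a6c was also not called under median-of-ratios scaling (adjusted p = 0.0562) or quantile scaling (adjusted p = 0.538). Lst1 lost its call without Ad-JP2 replicate 2 or 3 or Ad-shJP2 replicate 2 or 3 (adjusted p between 0.0961 and 0.144). Fcgr1 was lower, at -0.97 on the log2 scale. The 3 C1q chains, Lyz2, Cd68, Gpnmb, Pf4, Folr2 and Trem2 were among the other 17 lower members. After the correction C1qa stood at -0.07, C1qb at -0.10 and C1qc at -0.06, all still called. Trem2 stood at -0.07 and was no longer called (limma adjusted p = 0.149). Fcgr1 (-1.06), Gpnmb (-0.77), Lyz2 (-0.48), Pf4 (-0.26), Folr2 (-0.25) and Cd68 (-0.17) stayed called lower. H2-Ab1 was the 1 class II gene called (-0.41, limma adjusted p = 0.0304). It lost its call without Ad-JP2 replicate 1 or Ad-shJP2 replicate 1 or 2. After the correction it stood at -0.18 and was not called (adjusted p = 0.311).

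The 6 members below the filter were also fitted with no filter. Cd163 was at 0.280, 0.499 and 0.477 TPM in Ad-JP2, at 0.061, 0.020 and 0.191 TPM in Ad-shJP2 and at 0.356, 0.452 and 0.262 TPM in Ad-GFP. It was lower in Ad-shJP2 than in Ad-GFP (log2 fold change -0.32, limma adjusted p = 0.0257) and higher in Ad-JP2 than in Ad-shJP2 (0.38, adjusted p = 0.00953). Lyve1 was at 0.212, 0.279 and 0.223 TPM in Ad-JP2, at 0, 0.018 and 0.072 TPM in Ad-shJP2 and at 0.184, 0.061 and 0.097 TPM in Ad-GFP. It was higher in Ad-JP2 than in Ad-shJP2 (0.27, limma adjusted p = 0.00265). Both genes rest on few reads, with about 1 to 14 estimated Cd163 reads per Ad-shJP2 library. Lyve1 had about 0 to 1.8 estimated reads per Ad-shJP2 library and 6.0 to 7.2 per Ad-JP2 library. Marco, H2-Aa, Timd4 and Ccr2 did not pass in any comparison.

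To set each member against the other macrophage genes, its TPM was divided by the summed TPM of 9 core genes (Csf1r, Adgre1, Ptprc, Laptm5, Tyrobp, Fcer1g and the C1q chains; a core gene was divided by the sum of the others). The core sum was 1710.3 ± 19.4 TPM in Ad-JP2, 2077 ± 7.86 TPM in Ad-shJP2 and 1815 ± 10.9 TPM in Ad-GFP. It was 5.79% lower in Ad-JP2 than in Ad-GFP and 14.4% higher in Ad-shJP2 than in Ad-GFP, without overlap. An exact two-sided permutation test of either difference gave p = 0.1, the smallest that 3 libraries against 3 allow. Relative to the core, 27 of 32 members in Ad-JP2 and 24 of 32 in Ad-shJP2 were within 1.25-fold of their Ad-GFP value. The 9 core genes are among the 32, and the share of all tested genes within that range is not given. The count is therefore a description and does not show that the members moved together.

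Mrc1 was 1.19% ± 0.0294 of the core sum in Ad-JP2, 0.0949% ± 0.00452 in Ad-shJP2 and 0.450% ± 0.00969 in Ad-GFP. Cybb was 0.802% ± 0.133 in Ad-JP2, 0.171% ± 0.0416 in Ad-shJP2 and 0.384% ± 0.0142 in Ad-GFP. With Ptprc, which was bound to be higher there by the filter, these were the 3 members beyond 2-fold in Ad-JP2. In Ad-shJP2 the 3 were joined by Cx3cr1. Cx3cr1 was 0.646% ± 0.0316 of the core in Ad-JP2, 0.170% ± 0.0163 in Ad-shJP2 and 0.538% ± 0.0301 in Ad-GFP. Fcgr1 was 2.00 times its Ad-GFP share in Ad-shJP2. By contrast C1qb, Trem2, Cd68 and Gpnmb, which were called higher in TPM in Ad-shJP2, were within 1.07 times their Ad-GFP share of the core. The C1q chains held 1160 of the 1815 TPM of the core in Ad-GFP. C1qb was thus divided mostly by C1qa and C1qc, with which it kept nearly the same proportions, so its level share adds little.

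**Figure D3:**
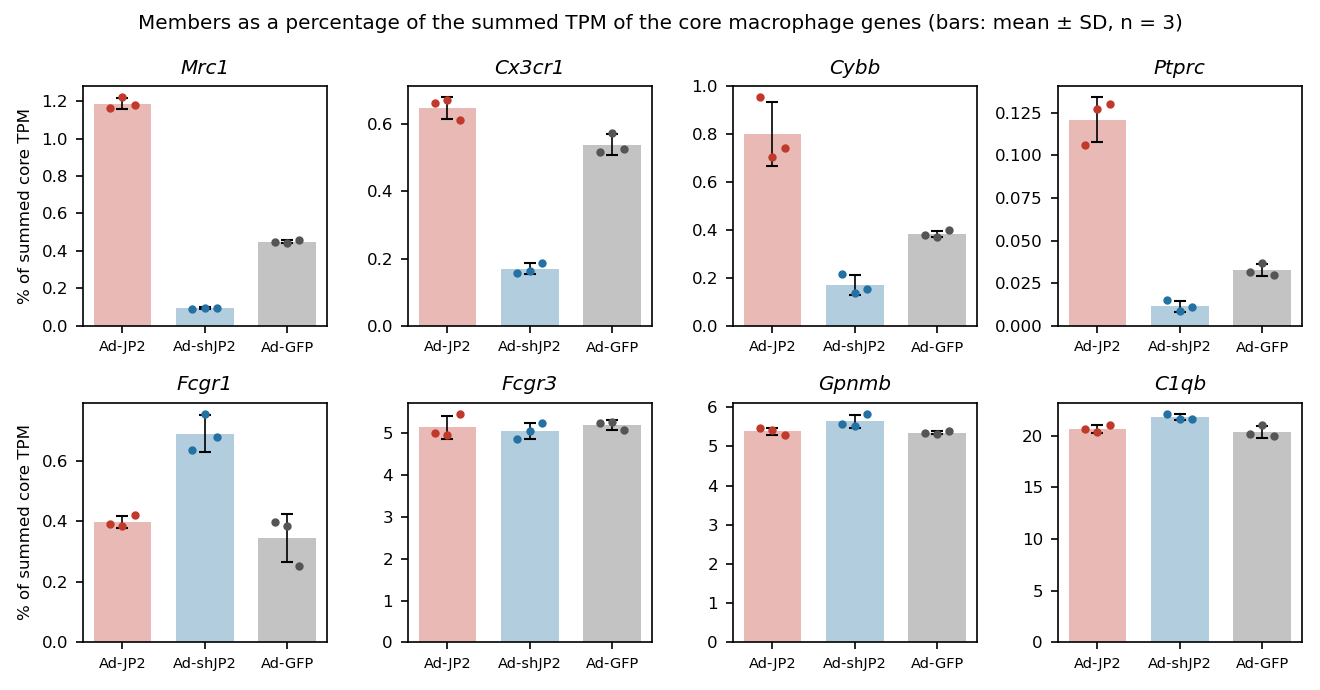
TPM of 8 members as a percentage of the summed TPM of the core macrophage genes in Ad-JP2, Ad-shJP2 and Ad-GFP; bars are means, error bars SD (n = 3) and points single libraries. Mrc1, Cybb and Ptprc are highest in Ad-JP2 and lowest in Ad-shJP2, Cx3cr1 is lowest in Ad-shJP2, Fcgr1 is highest in Ad-shJP2, and Fcgr3, Gpnmb and C1qb are nearly level.

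The members that departed from the core were mostly long genes. Mrc1 (5313 bases), Cybb (4752), Ptprc (4663) and Cx3cr1 (3578) are the 4 longest of the 32, while the C1q chains are 1040 to 1198 bases long and Tyrobp 596. Over all tested genes the difference in Ad-JP2 rose with length (Spearman 0.41 across 14025 genes with a GC content, which are not independent replicates) and fell with GC content (-0.41). Across the 32 members the values were 0.42 and -0.56. Without Ptprc, which was bound to be higher in Ad-JP2 by the filter, they were 0.36 and -0.52. In Ad-shJP2 they were -0.35 and 0.43 for the members (-0.29 and 0.38 without Ptprc) and -0.27 and 0.34 for all genes.

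Of the 9 members of 2400 bases or more, the median difference was 0.12 in Ad-JP2, beside 0.08 for the 5697 tested genes of that length. Without Ptprc, which was bound to be higher there by the filter, the median of the other 8 was also 0.08. In Ad-shJP2 the median was -0.13 with or without Ptprc, beside -0.28 for all genes of that length. The 14 members under 1200 bases had medians of -0.08 in Ad-JP2 and 0.20 in Ad-shJP2, beside -0.05 and -0.00 for all 3832 genes of that length. The long members thus did not move as one, since Gpnmb (3064 bases) rose by 0.27 and Fcgr1 (2589 bases) by 1.09 in Ad-shJP2.

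**Figure D4:**
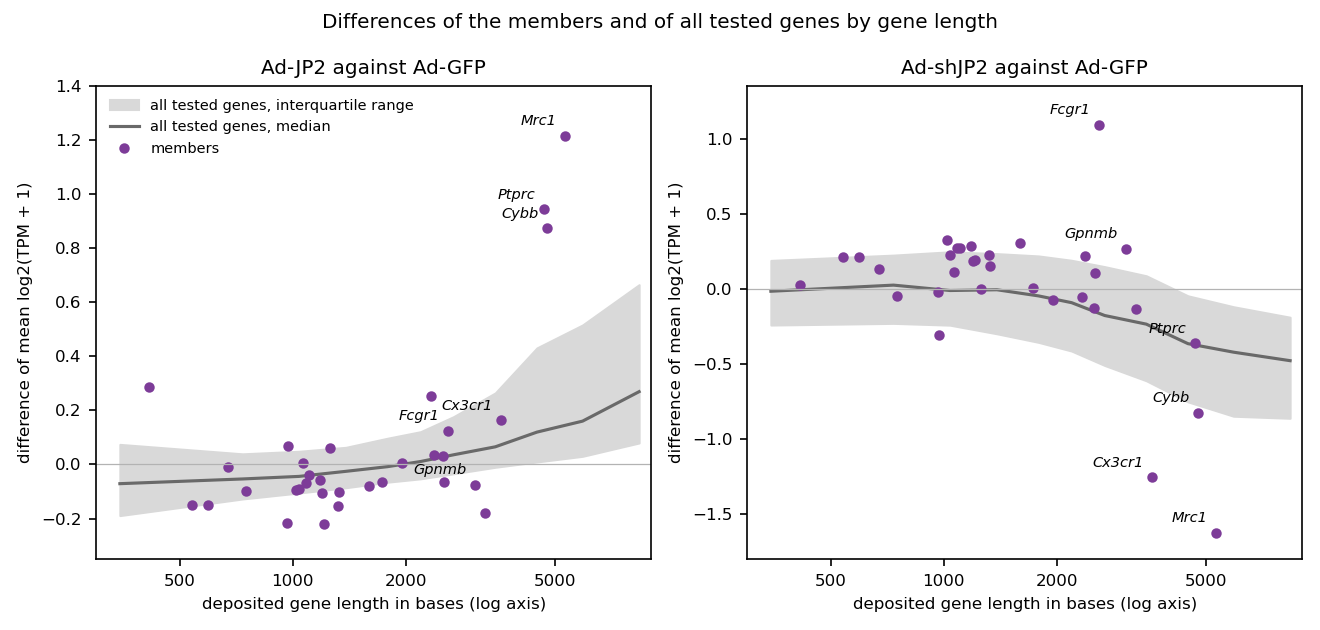
Difference of mean log2(TPM + 1) from Ad-GFP against deposited gene length (log axis), for Ad-JP2 on the left and Ad-shJP2 on the right; points are the 32 members, the line is the median of all tested genes by length and the band their interquartile range. Mrc1, Cybb and Ptprc lie above the band in Ad-JP2, while Mrc1 and Cx3cr1 lie below it, Cybb lies at its lower edge and Fcgr1 lies above it in Ad-shJP2.

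When the log2 values were corrected for GC content and length, Mrc1 remained called in both comparisons, at 0.72 in Ad-JP2 and -0.95 in Ad-shJP2. Cx3cr1 in Ad-shJP2 stood at -0.97 and Fcgr1 at 1.17, both called. Cybb was no longer called, at 0.37 in Ad-JP2 (limma adjusted p = 0.119) and -0.15 in Ad-shJP2 (adjusted p = 0.397). Ptprc stood at 0.41 in Ad-JP2, and in Ad-shJP2 it turned to 0.34 (adjusted p = 0.0164). The direction of Ptprc in Ad-shJP2 therefore depended on the correction. All its Ad-shJP2 values in TPM were below those of Ad-GFP, and the mean was 2.47-fold lower. Both groups lay under 1 TPM, where log2(TPM + 1) shrinks a difference, while the correction was fitted over all genes with a GC content. The corrected sign is therefore not read as a rise of Ptprc.

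The small shifts of the abundant genes changed too. In Ad-JP2, C1qa (0.01), C1qc (-0.01), Tyrobp (-0.02) and Pf4 (-0.05) were no longer called after correction, whereas Lyz2 (-0.17) and Apoe (-0.11) were. Gpnmb (-0.22) and Lst1 (0.43) passed after correction. In Ad-shJP2 C1qa (0.07), C1qb (0.13), Lyz2 (0.32), Gpnmb (0.56), Adgre1 (0.43) and Cd68 (0.19) stayed called higher. C1qc (0.05), Tyrobp (0.07), Fcer1g (0.03) and Cd14 (0.25) did not pass there, and Ms4a6c (-0.08) was no longer called lower. Apoe (-0.18) passed as lower there, and Ms4a7 (0.31), Msr1 (0.43), Fcgr2b (0.17) and Ptprc (0.34) passed as higher. For Ptprc this stands beside TPM values that were all below those of Ad-GFP. After correction Ad-JP2 thus had 3 members higher and 3 lower, and Ad-shJP2 had 16 higher and 3 lower. Of 14025 genes with a GC content, 909 were then higher and 1091 lower in Ad-JP2, and 4026 higher and 3833 lower in Ad-shJP2.

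Further macrophage genes were looked at in a list of 40, of which 36 were tested. In Ad-JP2 2 were called higher and 0 lower, beside 13.4% and 1.64% of all tested genes. In Ad-shJP2 8 were called higher and 6 lower, beside 21.8% and 37.7% of all tested genes. These counts depended on the setting. After correction 0 were higher and 6 lower in Ad-JP2, and 13 higher and 7 lower in Ad-shJP2, where median-of-ratios scaling gave 16 higher and 5 lower. Mertk, a receptor for the uptake of dying cells, averaged 9.35 TPM in Ad-JP2, 3.37 TPM in Ad-shJP2 and 7.34 TPM in Ad-GFP, and was called in both comparisons (log2 fold change 0.31 and -0.93, limma adjusted p = 0.0206 and 5.9e-06). After correction for GC content and length it stood at 0.09, which did not pass, and at -0.51, which did. Mpeg1, which encodes perforin-2, was 0.16 higher in Ad-JP2 and -0.70 lower in Ad-shJP2, on the log2 scale; after correction it was -0.19 and -0.17. Before correction Itgam, the CD11b integrin, fell by 0.72 in Ad-shJP2. Siglec1, a sialic acid receptor that interferon induces, rose by 0.68 in Ad-shJP2, also before correction.

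Genes that feed or attract macrophages were taken from a list of 11, of which 9 were tested. In Ad-JP2 1 was called higher and 0 lower, beside 13.4% and 1.64% of all tested genes. In Ad-shJP2 1 was higher and 2 lower, beside 21.8% and 37.7%. After correction for GC content and length 0 were higher and 2 lower in Ad-JP2, and 3 higher and 2 lower in Ad-shJP2. Csf1, the growth factor bound by Csf1r, was at 1480.1, 1482 and 1365 TPM in Ad-JP2, at 1120, 1139 and 1135 TPM in Ad-shJP2 and at 1458, 1428 and 1445 TPM in Ad-GFP. It was called lower in Ad-shJP2 (log2 fold change -0.35, SE 0.03), as was Il34, the other ligand of Csf1r (-0.74). Ccl12, a ligand of Ccr2, was called higher in Ad-shJP2 (0.86), and Ccl2, another, in Ad-JP2 (0.16; -0.05 and not called after correction). Ccr2 itself was at or near 0 in all of these libraries.

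Partners of the lipid-associated and class II genes gave counts that depended on the setting. Of all tested genes 13.4% were higher and 1.64% lower in Ad-JP2, and 21.8% higher and 37.7% lower in Ad-shJP2. Of 17 tested lipid-associated partners 3 were higher and 3 lower in Ad-JP2, led by the cholesterol transporter Abca1 (0.86), and 5 higher and 4 lower in Ad-shJP2, where the galectin Lgals3 rose by 0.69 and the scavenger receptor Cd36 fell by 0.66. After correction 1 was higher and 5 lower in Ad-JP2, and 10 higher and 1 lower in Ad-shJP2. Of 11 tested class II partners 1 was higher in Ad-JP2 (Cd80, 0.22; 0 after correction or under either other scaling) and 4 were higher and 1 lower in Ad-shJP2, among them the costimulatory receptor Cd40 (0.46). Of 5 tested recruited monocyte partners 1 was higher in Ad-JP2 (Vcan, 0.84) and 5 lower in Ad-shJP2, where 37.7% of all tested genes were. The number lower in Ad-shJP2 was 2 under median-of-ratios scaling, 3 under quantile scaling and 1 after correction. That list is not particular to monocytes here, since S100a4 averaged 8666 TPM over the 9 libraries and Fn1 is a fibroblast product.

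Markers of other leukocytes were at or near 0. Of 14 T cell and NK cell genes 7 were at 0 in all libraries, among them Cd3e, Cd3g and Cd8a, and 1 was tested. That was Trac, which was higher in Ad-shJP2 (log2 fold change 0.58, limma adjusted p = 0.00584), beside Cd3e and Cd3g at 0. Of 7 B cell genes and 6 mast cell genes none reached the filter. Of 11 neutrophil genes 2 were tested and neither passed (after correction 1 was higher in Ad-shJP2), with summed levels of 3.43 to 4.40 TPM in Ad-JP2, 3.06 to 5.11 TPM in Ad-shJP2 and 2.63 to 4.67 TPM in Ad-GFP. Of 8 dendritic cell genes 4 were at 0, including Flt3 and Clec9a. Batf3 was called higher in Ad-shJP2 (1.58) and Zbtb46 lower (-0.35; not called after correction or under either other scaling).

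The leukocyte RNA that could be tested was therefore chiefly that of genes of the macrophage lists. Endothelial markers summed to 41.0 to 47.1 TPM in Ad-JP2, 37.6 to 49.8 TPM in Ad-shJP2 and 43.9 to 46.2 TPM in Ad-GFP. Cardiomyocyte markers summed to 37.1 to 42.7 TPM in Ad-JP2, 28.7 to 31.3 TPM in Ad-shJP2 and 44.1 to 44.8 TPM in Ad-GFP. Of these markers 3 of 3 tested were lower in Ad-shJP2 (2 of 3 under either other scaling), where 37.7% of all tested genes were. The 2 tested lymphatic markers, Pdpn and Flt4, moved apart in Ad-shJP2 (-0.22 and 0.82), and Lyve1, which lymphatic vessels share with resident macrophages, was near the floor.

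**Figure D5:**
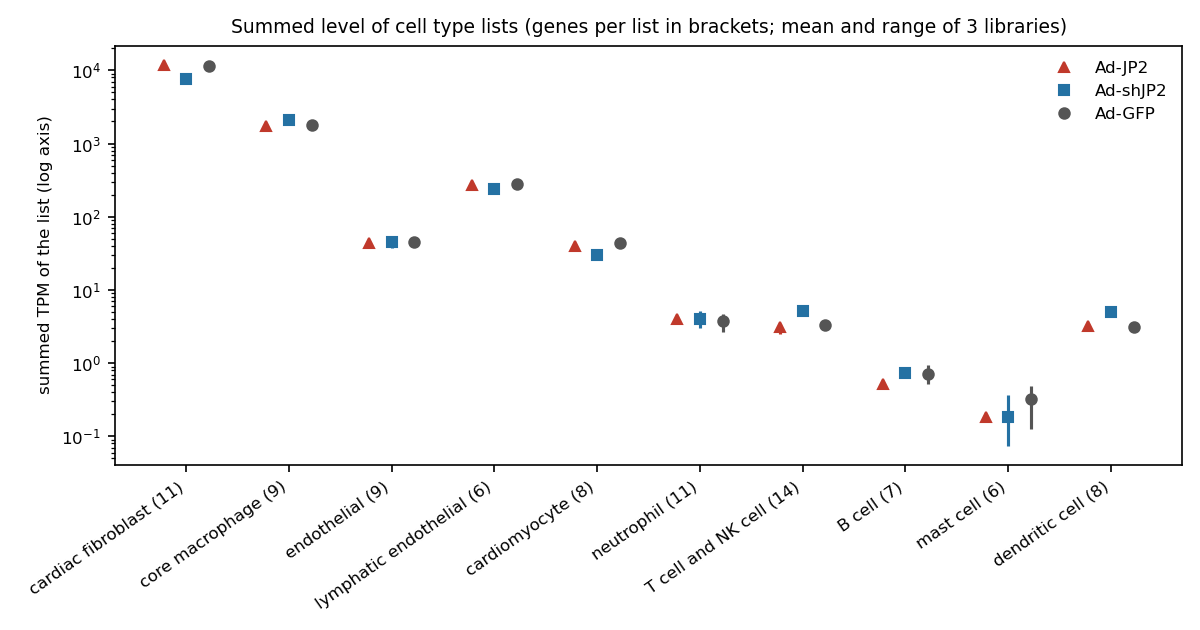
Summed TPM of cell type lists on a log axis, with the number of genes of each list in brackets; symbols are means and lines the range of the 3 libraries of Ad-JP2, Ad-shJP2 and Ad-GFP. The core macrophage genes lie below the fibroblast markers and far above the neutrophil, T cell and NK cell, B cell, mast cell and dendritic cell lists; Pdpn makes up most of the lymphatic list.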

How the data were processed

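RNA of 9 libraries from infected cultures was measured, 3 per virus. Per the labels, polyA RNA was made into stranded libraries by a TruSeq Stranded mRNA kit. DRAGEN, Salmon and DESeq2 and the build GRCm39 appear in the submitters' processing notes, without a stated role. The values analysed are TPM per gene as deposited by the authors, with a deposited gene length. Read depth was estimated from the steps of low values; 94.8% of low genes of Ad-GFP replicate 3 lay within 0.1 of a whole read, and 38.6% to 59.2% in the other libraries, so read numbers are approximate, and 3 reads of a gene of 1000 bases equal 0.0874 to 0.176 TPM. No count test was run on them.

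Genes at 1 TPM or more in at least 3 libraries were fitted on log2(TPM + 1) in limma 3.58.1 (R 4.3.3) with a mean-variance trend and the 3 group means, over all 9 libraries. P-values are two-sided and adjusted by Benjamini-Hochberg over 14215 genes, and a call is an adjusted p under 0.05. The fit was tested on simulated data. GC content (GENCODE annotation of GRCm38) was available for 98.7% of tested genes and all 38 members, and the correction used splines of GC content and length with 5 degrees of freedom each. The members and all lists were chosen with earlier results of these data known, and GC or length correction alone was added after the data were seen. All members are given; of other lists at most 4 called genes per comparison with the largest change are named, besides abundant genes and genes at 0. Thy1, Cd80, Ccl2 and Fn1 are named where a count of few or the context called for it, after their values were seen. Intervals and floors cover counting error only. Promoters came from RefSeq (GRCm38.p6).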

Additional observations from a re-analysis of the deposited data

How the results depend on the processing

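Of the called members, Mrc1 (higher) and Lyz2 (lower) in Ad-JP2 against Ad-GFP kept their calls and directions under every alternative run. In Ad-shJP2 against Ad-GFP 10 of 16 higher members (Lyz2, C1qa, C1qb, Gpnmb, Pf4, Cd68, Folr2, Trem2, Fcgr1 and Adgre1) and 2 of 5 lower (Mrc1 and Cx3cr1) did, and in Ad-JP2 against Ad-shJP2 3 of 6 higher and 11 of 18 lower. Apart from the GC and length settings, the higher and lower calls kept were 3 of 3 and 4 of 6 in Ad-JP2 against Ad-GFP. They were 13 of 16 and 3 of 5 in Ad-shJP2 against Ad-GFP, and 4 of 6 and 17 of 18 in Ad-JP2 against Ad-shJP2. Ptprc is among the higher members kept in both comparisons of Ad-JP2. It was bound to be higher there by the filter, so that its kept call carries no weight. Where a value moved, the cause was not tested.

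In Ad-JP2 against Ad-GFP the number of lower members was 3 with GC and length correction. In Ad-shJP2 against Ad-GFP it was 3 with GC and length correction, with GC correction alone and with quantile normalization. With the replicate block added to that correction, 1 member was higher and 2 lower in Ad-JP2, and 3 lower in Ad-shJP2. The replicate numbers did not pair the libraries (correlations of same-numbered libraries between -0.11 and 0.11), and the replicate block alone left 3 higher and 6 lower members for Ad-JP2 against Ad-GFP, 16 higher and 5 lower for Ad-shJP2 against Ad-GFP, and 5 higher and 18 lower for Ad-JP2 against Ad-shJP2. When single libraries were left out, higher and lower members numbered 3 to 3 and 5 to 6 in Ad-JP2 against Ad-GFP, 13 to 16 and 4 to 5 in Ad-shJP2 against Ad-GFP, and 5 to 7 and 17 to 19 in Ad-JP2 against Ad-shJP2.

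Changes of direction, as log2 differences, came mostly with GC and length correction, alone or with the replicate block. In Ad-JP2 against Ad-GFP, C1qa turned to 0.01, and GC correction alone brought Fcgr2b to -0.19 and Ms4a7 to -0.21. In Ad-shJP2 against Ad-GFP, Ptprc turned to 0.34 (0.12 with GC alone, 0.05 with length alone), Msr1 to 0.43 (0.48 with GC alone) and Fcgr2b to 0.17 (0.25 with GC alone). Ptprc lay under 1 TPM in both groups, with every uncorrected Ad-shJP2 value below those of Ad-GFP. Ms4a6c turned to 0.06 with GC alone, and Apoe to 0.09 with median-of-ratios scaling. In Ad-JP2 against Ad-shJP2, Apoe and Fcer1g turned to 0.07, Msr1 to -0.61 (-0.66 with GC alone), Fcgr2b to -0.33 (-0.44), Cd86 to -0.58 (-0.60) and Ms4a6c to -0.01 (-0.25), and Cd74 to -0.33 with quantile normalization.

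The log2 ratio of core sums was -0.09 in Ad-JP2 against Ad-GFP, and -0.11 with all tested members or median-of-ratios scaling (-0.10 to -0.08 with libraries left out). In Ad-shJP2 against Ad-GFP it was 0.19, and 0.18 with all tested members, 0.14 without the C1q chains and 0.31 with median-of-ratios scaling (0.19 to 0.20 with libraries left out). In Ad-JP2 against Ad-shJP2 it was -0.28, and -0.22 without the C1q chains and -0.41 with median-of-ratios scaling (-0.29 to -0.27). Depth limits Ccr2, Timd4, Lyve1 and Cd163 above all, and Ptprc in Ad-shJP2, which rest on few reads per library.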
